A study of Mus musculus with 96 samples.

Results

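The miR-7 family is represented in mouse cortex by 3 stem-loops, mir-7a-1 (MI0000728), mir-7a-2 (MI0000729) and mir-7b (MI0000730), taken by accession from the 1187 stem-loops of the count table. A stem-loop is the hairpin precursor from which a mature microRNA is cut. The files list accessions without names, but the stem-loop lengths that the deposited values imply, 108, 97 and 111 bases, equal the lengths of the 3 RefSeq hairpins. Each of the 3 passed the filter on low counts in all 28 comparisons.

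The libraries came from 96 mice of strain C57BL/6. There were 12 groups of 8, each with 4 females and 4 males. Knock-in mice were heterozygous for an *Htt* allele in which a human exon carries 20, 50, 92 or 140 CAG repeats (Q20, Q50, Q92 and Q140), and the other groups were wild-type (WT) mice of the Q20 line and of the Q50 line. Every genotype was sampled at 6 and at 10 months of age. Q20 and WT mice of the same age served as controls, 24 libraries per age. By their labels Q20 and Q50 mice lived with WT mice, Q92 mice with Q92 mice and Q140 mice with Q140 mice, whereas the methods of the study describe mixed cages. Q92 and Q140 have no WT littermates here, so their line and genotype cannot be told apart. Because the names of other microRNAs are not paired with accessions, the cortex label was not checked against cell type markers.

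MiR-7 is a deeply conserved microRNA that is abundant in neurons with secretory function and in other neuroendocrine cells. Its targets include the transcript of alpha-synuclein. The circular RNA Cdr1as carries many miR-7 sites, and the long noncoding RNA Cyrano directs the destruction of mature miR-7. A microRNA recognizes its targets mainly through its seed, bases 2 to 8 of the mature strand.

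The mature strands are shown first because they set which reads can be told apart. Capitals mark the seed, and sequences are those of RefSeq on GRCm38.p6.
mmu-miR-7a-5p: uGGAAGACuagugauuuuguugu
mmu-miR-7b-5p: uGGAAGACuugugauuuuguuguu
mmu-miR-7a-1-3p: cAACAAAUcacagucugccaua
mmu-miR-7a-2-3p: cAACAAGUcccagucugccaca
mmu-miR-7b-3p: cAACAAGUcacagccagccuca
The 5p strand of mir-7a-1 and that of mir-7a-2 are the same sequence. It has 22 of 23 bases in common with miR-7b-5p, the difference being A10U (miR-7a-5p first, counted from 1 at the 5′ end). All 5p strands therefore share the seed GGAAGAC, which no other gene among the 1738 mature entries of the RefSeq table has. On the 3p arm the seed of mir-7a-1 differs by A7G from that of mir-7a-2, and mir-7a-2 and mir-7b share theirs.

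The hairpins, with both mature strands in capitals, show how the loci differ outside the 5p strand.
mir-7a-1: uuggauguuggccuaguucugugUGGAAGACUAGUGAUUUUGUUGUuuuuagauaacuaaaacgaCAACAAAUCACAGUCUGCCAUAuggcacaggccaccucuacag
mir-7a-2: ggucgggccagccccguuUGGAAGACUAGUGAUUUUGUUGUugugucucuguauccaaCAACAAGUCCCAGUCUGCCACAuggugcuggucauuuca
mir-7b: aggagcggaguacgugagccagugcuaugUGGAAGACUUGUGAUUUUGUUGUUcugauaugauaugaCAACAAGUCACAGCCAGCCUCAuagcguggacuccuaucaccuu
The longest run common to the mir-7a hairpins was 24 bases, and either shared at most 14 with mir-7b. Mir-7a-1 lies at chr13:58392779-58392886 on the minus strand, within *Hnrnpk*, which encodes an RNA-binding protein and is read from the same strand. All 12 annotated *Hnrnpk* transcripts that span the hairpin carry it in an intron. Mir-7a-2 lies at chr7:78888277-78888373 on the plus strand, outside annotated genes, with *Aen* the nearest at 7481 bp. Mir-7b lies at chr17:56242988-56243098 on the plus strand, 183 bp from the long noncoding RNA gene AC026385.1 and 13712 bp from *Fem1a*.

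The deposited counts of these stem-loops were fractional. Neither mir-7a-1 nor mir-7a-2 had a whole-number count in any of the 96 libraries, yet their sum was whole, within 0.001, in 90. In the other 6, mir-7b was fractional as well, and the sum of all 3 was whole. How reads that match several loci were divided is not given in the labels or methods, and the split of mir-7a between its loci is uncertain. The sum of both mir-7a stem-loops does not depend on that split, and is given below beside the separate values.

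Levels are in CPM, counts scaled to a common library total after TMM normalization. Mir-7a-1 was the most abundant of the 3, with 91.2 to 168 CPM over the 96 libraries. Mir-7a-2 had 14.5 to 90.6 CPM and mir-7b 26.3 to 76.1 CPM. Per length the order of mir-7a-1 was the same: its median was 1100 FPKM, against 400 FPKM for mir-7a-2 and 410 FPKM for mir-7b, and it exceeded both in 96 of 96 libraries. Mir-7a-2 exceeded mir-7b in 48 of 96, so those levels had no fixed order. The family together held 0.0141% to 0.032% of a library.

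Mir-7a-2 was the variable member. Its coefficient of variation across the libraries was 46.4%, and only 3 of 53 other stem-loops within 2-fold of its mean level had a higher one. Those of mir-7a-1 and mir-7b were 12.1% and 21%. Within groups the median coefficient for mir-7a-2 was 39%, whereas its median count of 238 gives a counting error of 6.49%, which leaves out any error in dividing shared reads. The lowest mir-7a-2 count was 68.1, in a Q92 male at 10 months (exact Poisson 95% interval 52.8 to 86.2, which covers counting error only).

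**Figure D1:**
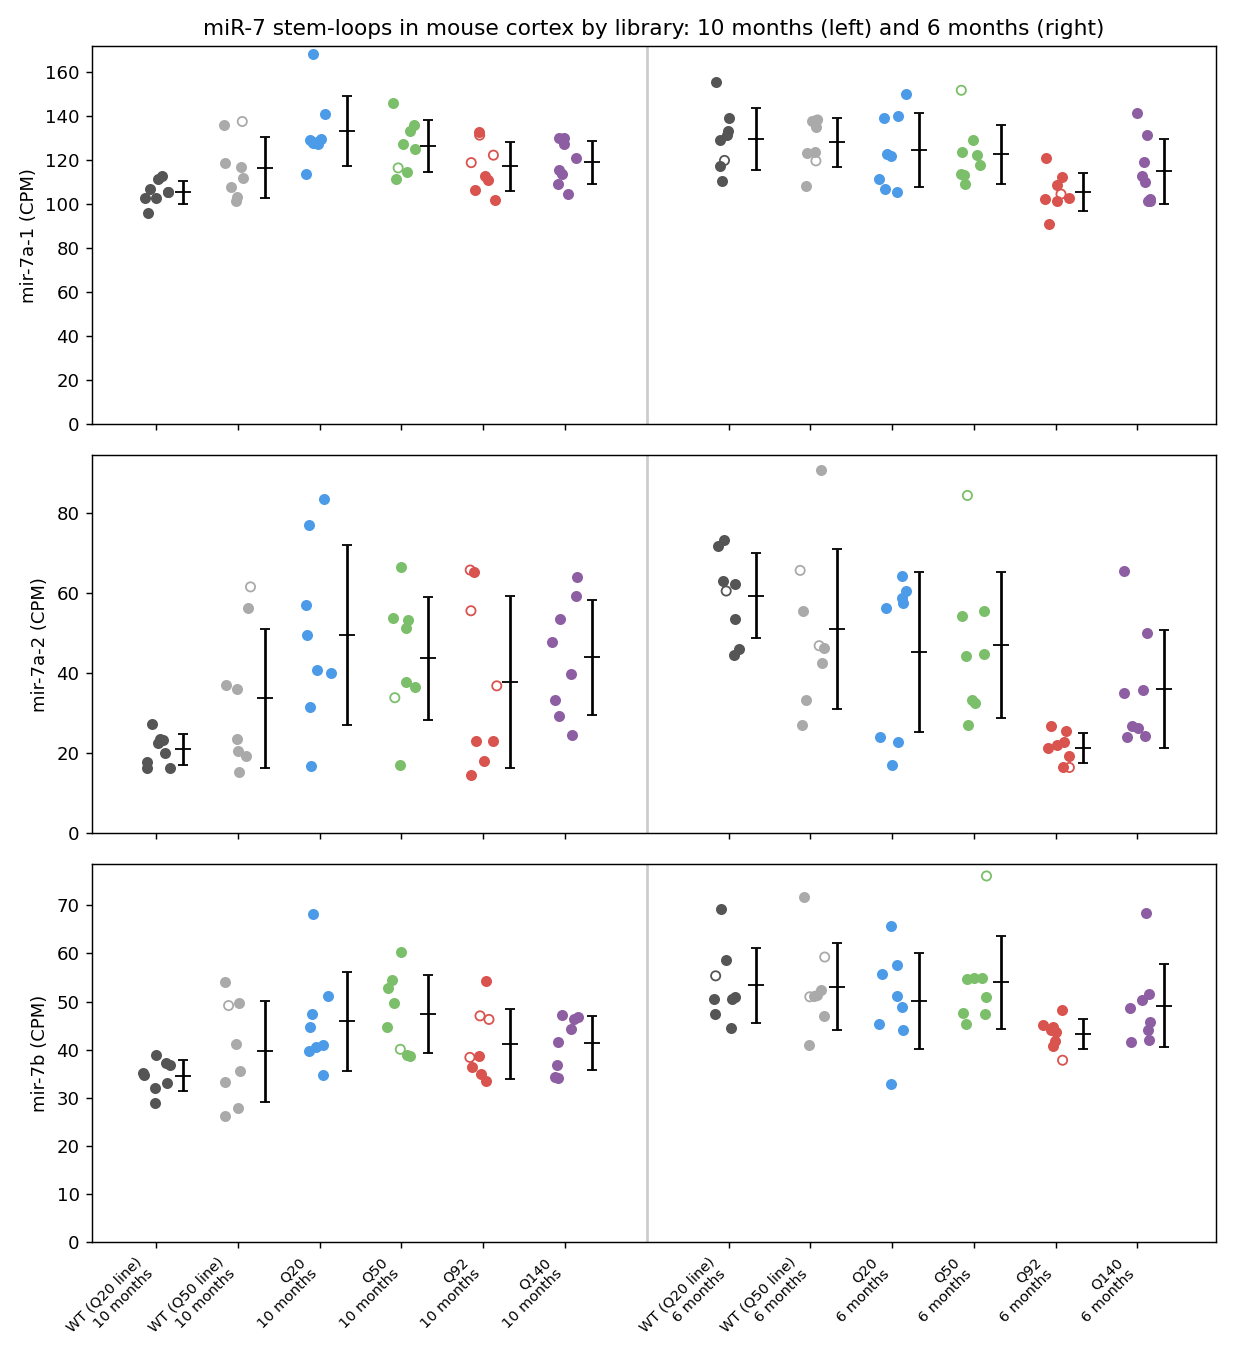
CPM of mir-7a-1, mir-7a-2 and mir-7b in each library (points), with 10 months on the left and 6 months on the right and repeat length increasing within each age. Bars are mean ± SD of 8 libraries, and open points are libraries left out of the fits. Mir-7a-2 is at most 27.28 CPM in every library of Q92 at 6 months and of WT of the Q20 line at 10 months, and each other group holds higher libraries.

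Neighbouring groups in the order of mean level were not clearly apart, although some groups distant in it did not overlap. For each of the 3 stem-loops, none of the 11 steps between neighbours in that order exceeded the larger of the SDs of the groups it joined. For mir-7a-2 the lowest groups were WT of the Q20 line at 10 months, at 20.96 ± 3.89 CPM (SD, n = 8), and Q92 at 6 months, at 21.38 ± 3.77 CPM. The highest was WT of the Q20 line at 6 months, at 59.35 ± 10.7 CPM. Mir-7a-1 had the same lowest groups, 105.5 ± 5.28 CPM in WT of the Q20 line at 10 months and 105.6 ± 8.73 CPM in Q92 at 6 months, and its highest mean was in Q20 at 10 months, at 133.3 ± 15.9 CPM. For mir-7b the lowest mean was again in WT of the Q20 line at 10 months, at 34.65 ± 3.19 CPM, and the highest in Q50 at 6 months, at 53.97 ± 9.7 CPM.

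Several groups held both low and high libraries of mir-7a-2. At 6 months 3 Q20 mice had 17.07, 22.8 and 24.15 CPM and the other 5 had 56.18 to 64.36 CPM. Among Q92 mice at 10 months, 4 had 14.46 to 22.97 CPM and 4 had 36.83 to 65.73 CPM, and 3 of these high libraries were left out of the fits. Libraries of Q92 at 6 months, by contrast, lay between 16.46 and 26.75 CPM.

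A set of 8 other stem-loops, high or low together, varied from 280 to 63183 CPM between these libraries and contained no miR-7 member. The set was taken from these data, as the stem-loops that weigh most on the main axis of variation (first principal component) of the controls. Its member with the highest mean had 3681 CPM and the next 474.2 CPM. Over the 96 libraries, which share their normalization, mir-7a-2 correlated with the log2 level of the set at r = 0.48, mir-7a-1 at 0.41 and mir-7b at 0.35. After group means were taken off, over the 86 libraries kept for the fits, these r were 0.39, 0.27 and 0.34. Mir-7a-2 also varied where the set was low: in the 53 libraries with at most 1000 CPM of the set it ranged from 16.4 to 76.9 CPM, with a median of 33.3 CPM. In the other 43 it ranged from 14.5 to 90.6 CPM, with a higher median of 53.7 CPM. The 3 Q92 libraries of 10 months left out of the fits had 49980, 40280 and 31900 CPM of the set. All libraries left out had 445.7 to 63183 CPM of it, and libraries kept had up to 24320 CPM.

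**Figure D2:**
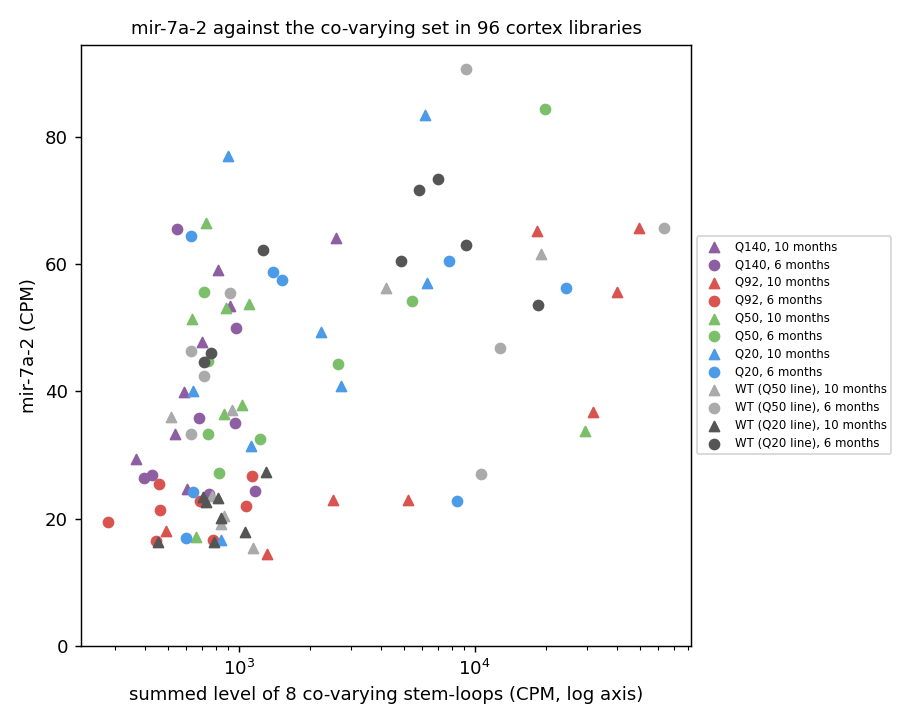
CPM of mir-7a-2 against the summed CPM (log axis) of the 8 co-varying stem-loops in 96 libraries, with triangles for 10 months and circles for 6 months. Libraries with at most 1000 CPM of the set span 16.4 to 76.9 CPM of mir-7a-2, and those of Q92 at 6 months have at most 1136 CPM of the set and 26.75 CPM of mir-7a-2.

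The comparison of each CAG length with controls asks how the cortex responds to an expanded *Htt* repeat. At 6 months mir-7a-1 and mir-7a-2 fell in Q92 cortex, and mir-7b did not pass the test. Fits used the 86 libraries that passed a screen for outlying libraries. Except for fits of age itself, the covariates were sex and a tag in the labels that stood in for batch. The tag is L1, L2 or L3 (the L field), and its meaning is not given. Fits of the age difference itself, in all controls or in a single WT group, did not include the L field. In bulk cortex, fewer cells of a type and less RNA per cell cannot be told apart. Here 53 of 439 stem-loops tested, 12.1%, passed an edgeR false discovery rate (FDR) of 0.05.

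Mir-7a-2 had a lowest, median and highest level of 16.62, 22.04 and 26.75 CPM in 7 Q92 libraries, against 17.07, 55.43 and 90.64 CPM in 21 control libraries. All 7 lay under the control median, and 1 lay under every control, so that the groups overlapped only at the low end of the controls. The log2 change was -1.22 ± 0.25 (SE, edgeR FDR = 0.00268). Mir-7a-1 had 91.2, 102.7 and 121 CPM in Q92, against 105.5, 129.2 and 155.6 CPM in controls, with 4 of 7 under every control. Its log2 change was -0.27 ± 0.07 (edgeR FDR = 0.00968). Mir-7b had 40.72, 44.14 and 48.23 CPM in Q92, against 32.81, 51.03 and 71.63 CPM in controls, a log2 change of -0.24 ± 0.10 (edgeR FDR = 0.107).

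The sum of both mir-7a stem-loops was 127.8 ± 10.9 CPM in Q92 (SD, n = 7) and 178.8 ± 30 CPM in controls (SD, n = 21). Mir-7a-2 made up 17.27% ± 2.21 of it in Q92 and 27.63% ± 6.68 in controls. The co-varying set was also low in Q92, at 280.3 to 1136 CPM, against 600.3 to 24320 CPM in controls. With its level as a covariate, chosen after the data were seen, the change of mir-7a-2 was -1.03 (edgeR FDR = 0.0321) and that of mir-7a-1 was -0.22 (edgeR FDR = 0.0685). Within L1 (4 Q92 and 11 control libraries) mir-7a-2 changed by -1.24 (edgeR FDR = 0.0523) and mir-7a-1 by -0.34 (edgeR FDR = 0.0447), and within L2 (3 and 10 libraries) by -1.18 (edgeR FDR = 0.282) and -0.16 (edgeR FDR = 0.645).

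In Q140 at 6 months no member passed, where 8 of 445 stem-loops (1.8%) did. Mir-7a-2 had 23.97, 30.96 and 65.53 CPM (lowest, median and highest) in 8 Q140 libraries, and 7 of the 8 lay under the control median. Its log2 change was -0.53 (95% interval -1.02 to -0.05, edgeR FDR = 0.226). Those of mir-7a-1 and mir-7b were -0.13 (edgeR FDR = 0.285) and -0.06 (edgeR FDR = 0.787). In Q50 none of 447 stem-loops passed the edgeR test, 56 had an unadjusted p under 0.05, and up to 4 passed under the alternatives run. The log2 changes of mir-7a-1, mir-7a-2 and mir-7b were -0.11, -0.31 and -0.05.

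The changes in Q140 were smaller than those in Q92. Set directly against Q92, Q140 had more mir-7a-2, 23.97 to 65.53 CPM in 8 Q140 libraries against 16.62 to 26.75 CPM in 7 Q92 libraries. All 8 exceeded the Q92 median. The log2 difference of 0.67 (95% interval 0.34 to 0.99) had the lowest p of 442 stem-loops but did not pass in edgeR (FDR = 0.198), and passed in DESeq2 (FDR = 0.0188). None of the 442 passed in edgeR, 46 had an unadjusted p under 0.05, and up to 3 passed under the alternatives. At 10 months the difference was 0.75 (95% interval -0.22 to 1.72), where 0.228% of 439 passed, and 1.52 with the co-varying set as a covariate (edgeR FDR = 0.0117), a setting in which 36 of 443 passed.

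Across the 6 groups of 6 months, with CAG length as a number (7 for WT), the fitted slopes of mir-7a-1 and mir-7a-2 were negative. The group means were not graded with length. Over all libraries mir-7a-2 had 47.02 CPM in Q50, 21.38 CPM in Q92 and 35.98 CPM in Q140. Mir-7a-1 had 122.8, 105.6 and 115.1 CPM. The slopes per 100 repeats were -0.15 ± 0.05 (SE, edgeR FDR = 0.0302) and -0.59 ± 0.17 (edgeR FDR = 0.0149) over 43 libraries, where 14% of 444 stem-loops passed. That of mir-7b was -0.10 ± 0.07 (edgeR FDR = 0.347). With knock-in groups only the slopes were -0.10 (edgeR FDR = 0.451) and -0.41 (edgeR FDR = 0.419), and with the co-varying set as a covariate -0.10 (edgeR FDR = 0.341) and -0.39 (edgeR FDR = 0.314). Within L1 they were -0.22 (edgeR FDR = 0.0269) and -0.84 (edgeR FDR = 0.0169), and within L2 -0.078 (edgeR FDR = 0.799) and -0.35 (edgeR FDR = 0.747). The slope of mir-7a-1 also lost its call without Q140 female 1 (-0.14, edgeR FDR = 0.0542), Q140 male 1 (-0.14, edgeR FDR = 0.0658) or male 2 of the WT of the Q20 line (-0.14, edgeR FDR = 0.0507). The call was lost too with the replicate number of the labels in place of sex, the replicate block (-0.14, edgeR FDR = 0.0531).

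**Figure D3:**
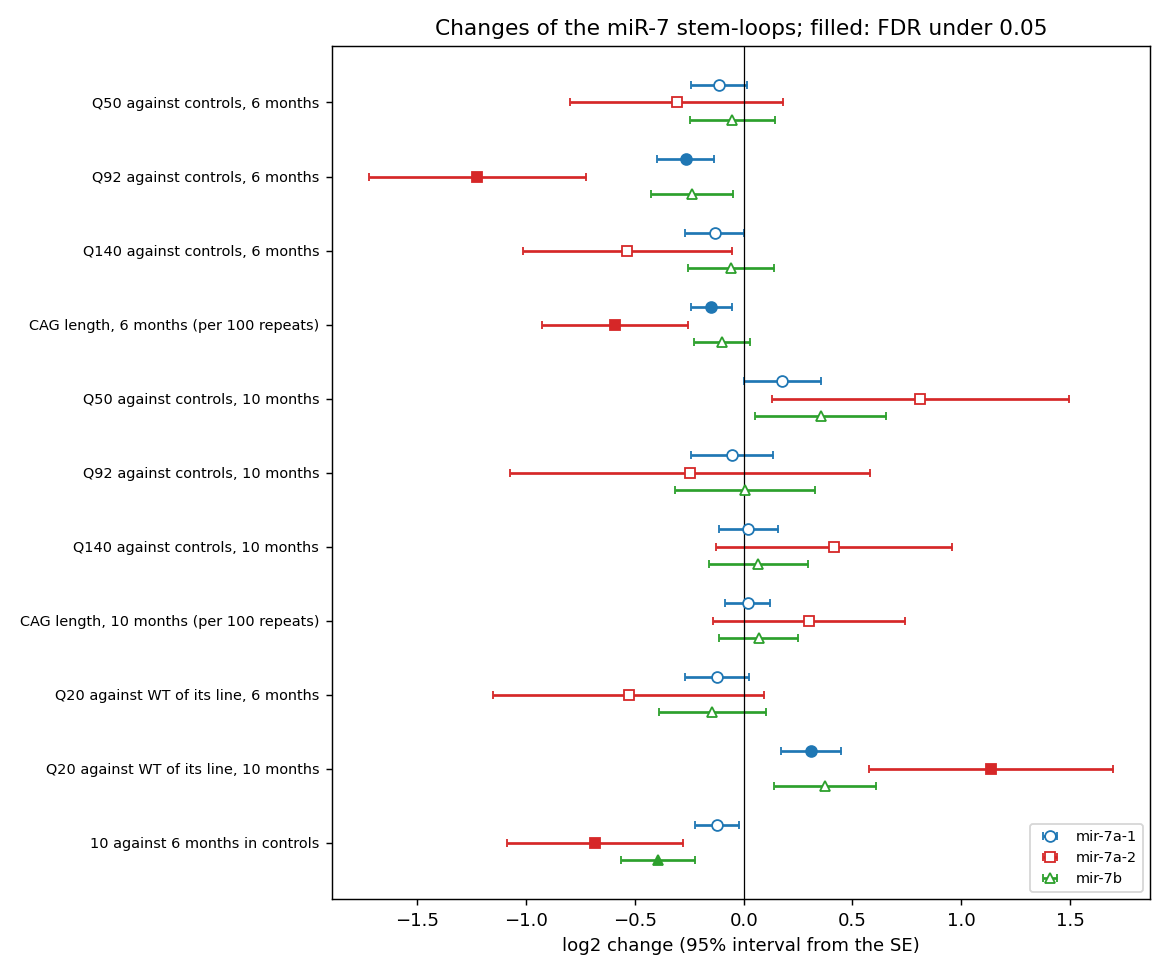
Log2 changes of mir-7a-1 (circles), mir-7a-2 (squares) and mir-7b (triangles) in 11 comparisons, with 95% intervals from the SE. Filled symbols passed FDR 0.05 in edgeR. Mir-7a-2 has the widest intervals and the most distant values, from -1.22 in Q92 at 6 months to 1.14 in Q20 against WT of its line at 10 months.

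At 10 months no member passed in Q50, Q92, Q140 or the slope, where 0%, 0%, 0.662% and 0.828% of the stem-loops passed in edgeR. The unadjusted p was under 0.05 for 31 stem-loops in Q50 and 40 in Q92, and up to 1 and 8 passed under the alternatives run. In Q50 the changes pointed up, at 0.18, 0.81 and 0.35 for mir-7a-1, mir-7a-2 and mir-7b (edgeR FDR = 0.667, 0.624 and 0.624). In Q92, with 5 libraries kept, they were -0.06, -0.25 (95% interval -1.07 to 0.58) and 0.01. The sign for mir-7a-2 turned over all 96 libraries, which add the 3 high Q92 libraries: the change was then 0.27 (edgeR FDR = 0.925), with 37.73 ± 21.5 CPM in 8 Q92 libraries and 34.71 ± 19.8 CPM in 24 control libraries (SD). It was 0.22 (edgeR FDR = 0.815) with WT mice alone as controls. With the co-varying set as a covariate, over the libraries kept, it was -0.84 (edgeR FDR = 0.2455). In that fit mir-7a-1 changed by -0.13 (edgeR FDR = 0.507) and mir-7b by -0.19 (edgeR FDR = 0.5485). In Q140 mir-7a-2 changed by 0.41 (95% interval -0.13 to 0.96, edgeR FDR = 0.744), and with WT mice alone as controls by 0.85 (edgeR FDR = 0.0198), a setting in which 16 of 442 stem-loops passed. The slopes per 100 repeats were 0.02, 0.30 and 0.07 for mir-7a-1, mir-7a-2 and mir-7b. With knock-in groups only all of them changed sign, to -0.14, -0.20 and -0.16 (edgeR FDR = 0.330, 0.864 and 0.584).

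The difference between ages was tested directly. The slope of mir-7a-2 was 0.90 ± 0.28 higher per 100 repeats at 10 than at 6 months (SE, edgeR FDR = 0.0673), where none of 504 stem-loops passed in edgeR 86 had an unadjusted p under 0.05 and up to 31 passed under the alternatives. It passed in DESeq2 (0.88, FDR = 0.0407). The changes of the Q50, Q92 and Q140 differences of mir-7a-2 were 1.11, 0.95 and 0.95, and none passed (edgeR FDR = 0.292, 0.452 and 0.233). Over all 96 libraries the change of the Q92 difference was 1.53 and passed (edgeR FDR = 0.0130, with 20 of 463 stem-loops called), and with the co-varying set as a covariate it was 0.22 (edgeR FDR = 0.993). Over all stem-loops 0%, 1.45% and 0% passed in these comparisons in edgeR, 61 in Q50 and 63 in Q140 had an unadjusted p under 0.05, and up to 1 and 0 passed under the alternatives. With both ages combined, mir-7a-2 fell in Q92 by 0.74 on the log2 scale (edgeR FDR = 0.0230, where 6.88% of 436 stem-loops passed). With WT mice alone as controls the change was -0.55 (edgeR FDR = 0.0858), over all 96 libraries -0.50 (edgeR FDR = 0.0882), and with the replicate block -0.71 (edgeR FDR = 0.0757). Mir-7a-1 changed by -0.16 (edgeR FDR = 0.0518). No member passed for the combined slope or for Q140 with ages combined, where 2.93% and 1.14% of the stem-loops passed.

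Control groups also differed among themselves. At 10 months mir-7a-1 and mir-7a-2 were higher in Q20 than in WT mice of the same line, a comparison in which 7.78% of 450 stem-loops passed. Mir-7a-2 had 16.71, 45.14 and 83.46 CPM (lowest, median and highest) in 8 Q20 libraries, against 16.42, 21.4 and 27.28 CPM in 8 WT libraries. In 7 of 8 Q20 mice it exceeded the WT median, and the groups met at the low end. The log2 change was 1.14 ± 0.29 (SE, edgeR FDR = 0.0262). Mir-7a-1 had 113.9, 129 and 168.2 CPM in Q20, against 95.95, 105.7 and 112.8 CPM in WT, with no overlap, and changed by 0.31 ± 0.07 (edgeR FDR = 0.0134). Mir-7b changed by 0.37 ± 0.12 (edgeR FDR = 0.0626).

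The sum of both mir-7a stem-loops was 182.8 ± 37.1 CPM in Q20 and 126.5 ± 8.71 CPM in WT of its line (SD, n = 8 each). The co-varying set stood at 638 to 6281 CPM in Q20 and 455.1 to 1308 CPM in WT, and with it as a covariate neither change passed (0.88 for mir-7a-2, edgeR FDR = 0.245, and 0.23 for mir-7a-1, edgeR FDR = 0.229). The call of mir-7a-2 was lost without any of 6 single libraries, namely Q20 female 3 or male 3 or any of the 4 WT males (edgeR FDR = 0.0538 to 0.0768). That of mir-7a-1 was lost without Q20 male 3 (edgeR FDR = 0.0579). With the replicate block neither passed (edgeR FDR = 0.0759 for mir-7a-1 and 0.172 for mir-7a-2), and 0 of 461 stem-loops did.

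At 6 months the same comparison gave -0.12, -0.53 and -0.14 for mir-7a-1, mir-7a-2 and mir-7b, none of which passed. None of 436 stem-loops did in edgeR, or under any alternative run, and 23 had an unadjusted p under 0.05. The turn between ages, tested after the data were seen, was 0.41 ± 0.10 for mir-7a-1 (SE, edgeR FDR = 0.0121) and 1.64 ± 0.43 for mir-7a-2 (edgeR FDR = 0.0206), where 6.9% of 464 stem-loops passed. With the co-varying set as a covariate that of mir-7a-2 was 1.48 and did not pass (edgeR FDR = 0.0571). With the replicate block neither passed (edgeR FDR = 0.166 for mir-7a-1 and 0.28 for mir-7a-2), where 1 of 501 stem-loops did. Between the WT groups, Q50 line over Q20 line, mir-7a-2 differed by -0.23 at 6 months (edgeR FDR = 0.758) and by 0.45 at 10 months (edgeR FDR = 0.417). At 6 months none of 435 stem-loops passed in edgeR, 50 had an unadjusted p under 0.05 and up to 8 passed under the alternatives, and at 10 months 0.685% of 438 passed. No member passed for Q50 against WT of its line at either age. Mir-7a-2 changed by -0.27 (95% interval -0.79 to 0.25) at 6 months and by 0.68 (95% interval -0.09 to 1.44) at 10 months. None of 435 and of 458 stem-loops passed in edgeR there. The unadjusted p was under 0.05 for 9 and 19, and up to 1 passed under the alternatives at each age.

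In WT mice of the Q20 line all 3 stem-loops were lower at 10 than at 6 months. Mir-7a-2 had 16.42, 21.4 and 27.28 CPM (lowest, median and highest) in 8 libraries of 10 months, against 44.6, 62.16 and 73.33 CPM in 7 libraries of 6 months, without overlap. The log2 change was -1.47 ± 0.13 (SE, edgeR FDR = 2.96e-07), in a comparison in which 45.9% of 429 stem-loops passed. The comparison was added after the data were seen, and no other genotype was tested alone between ages. For mir-7a-2 its arms had the lowest and the highest mean of the 12 groups, and the FDR does not allow for that choice. Sex was the only covariate: kept libraries were 3 in L1 and 4 in L2 at 6 months, against 5 in L2 and 3 in L3 at 10 months. Mir-7b changed by -0.59 ± 0.09 (edgeR FDR = 5.79e-05), also without overlap, and mir-7a-1 by -0.29 ± 0.06 (edgeR FDR = 9.02e-04).

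Over all controls 44.1% of 442 stem-loops passed between ages, so calls of members stand against a high background. Mir-7b fell, with a log2 change of -0.39 ± 0.09 (SE, edgeR FDR = 2.21e-04), and had 26.32, 37.26 and 68.15 CPM in 23 libraries of 10 months, against 32.81, 51.03 and 71.63 CPM in 21 libraries of 6 months. Mir-7a-2 fell as well, by 0.68 ± 0.21 on the log2 scale (edgeR FDR = 0.0058), and mir-7a-1 changed by -0.12 (edgeR FDR = 0.0512). The fall of mir-7a-2 was not common to all control groups. Over all libraries its mean went from 59.35 to 20.96 CPM in WT of the Q20 line. In WT of the Q50 line it went from 50.98 to 33.68 CPM, but in Q20 from 45.16 to 49.48 CPM. With the L field added mir-7a-2 changed by -0.56 (edgeR FDR = 0.142). L2 was held by 15 control libraries of 10 months and 10 of 6 months, but the labels do not say what the field is or whether the ages were prepared together, and the part of library preparation was not tested. No member passed between males and females, where 1.39% of 504 stem-loops did.

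The 3 members moved together from mouse to mouse. After group means were taken off, r over the 86 libraries kept was 0.76 between mir-7a-1 and mir-7b, 0.76 between mir-7a-2 and mir-7b, and 0.73 between mir-7a-1 and mir-7a-2. These libraries share their normalization, and the mir-7a stem-loops share divided reads.

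**Figure D4:**
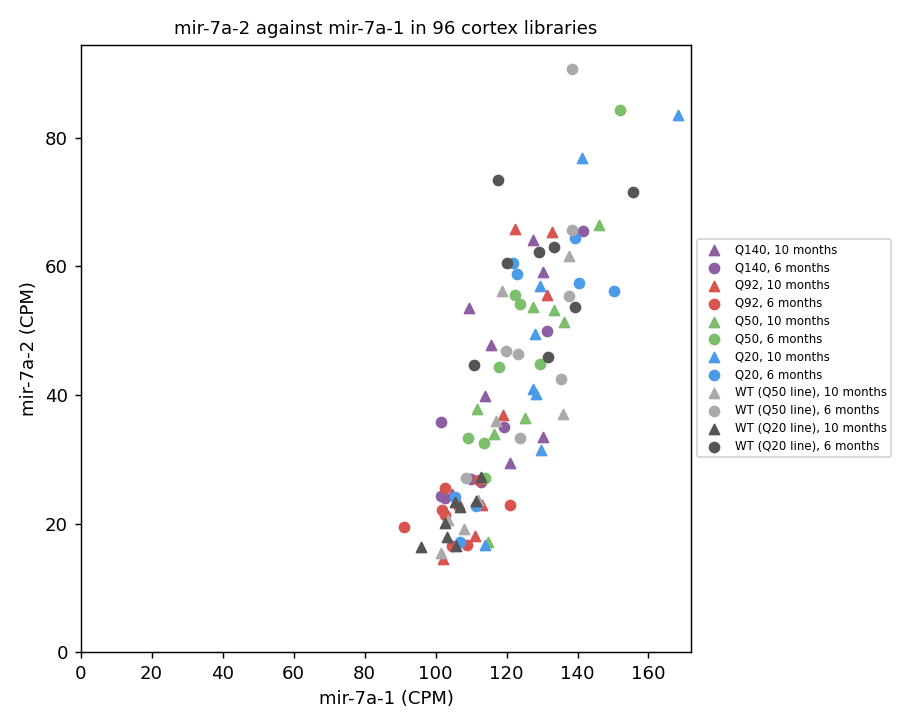
CPM of mir-7a-2 against CPM of mir-7a-1 in 96 libraries, with triangles for 10 months and circles for 6 months. Mir-7a-1 spans 91.2 to 168 CPM while mir-7a-2 spans 14.5 to 90.6 CPM, and libraries high in one are mostly high in the other.

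Among stem-loops with a mean of at least 100 CPM, the one most like mir-7a-2 was MI0000398, with r = 0.88 after group means were taken off and 0.86 without, over 86 libraries. It was also the most like mir-7a-1, with r = 0.66 and 0.70. Its median was 231.4 CPM in Q92 at 6 months and 157.6 CPM in WT of the Q20 line at 10 months, its lowest medians at those ages, and 492.6 CPM in WT of the Q20 line at 6 months. MI0004129 was the next for both, with r = 0.80 for mir-7a-2 and 0.64 for mir-7a-1. For mir-7b the most like was mir-7a-1. The lowest r was -0.76 for mir-7a-2, with MI0014104, and -0.54 for mir-7a-1 and -0.65 for mir-7b, both with MI0000155.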

How the data were processed

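By the methods of the study, small RNA from flash-frozen cortex was sequenced as short single-end strand-specific reads, clipped, aligned to mm10 with STAR and counted with HTSeq. How the fractional counts of the deposit arose from these steps is not stated. CASAVA 1.8.2 is named in the submitters' processing notes, and no source used here gives the other versions. The authors deposited estimated counts per stem-loop, not normalized, and FPKM values, which per the deposited table equal counts divided by library total and stem-loop length. FPKM was used only to compare levels between stem-loops. Library totals were 3698376 to 12142170 counts. All value columns were matched to a sample.

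Estimated counts were rounded. Libraries with a robust connectivity Z under -5 at their age, by the network screen of the study as far as its methods state it, were left out (10 of 96, 3 of them Q92 at 10 months). The study's replacement of single outlying values was not applied. Tests used edgeR 4.0.16 in R 4.3.3 (TMM, filterByExpr, robust quasi-likelihood test) on the whole table with Benjamini-Hochberg adjustment and a threshold of 0.05, with DESeq2 1.42.0 as an alternative. Ages were combined by summed Z statistics, as in the study. P-values treat mice as replicates. No pair of libraries in a group agreed within sampling noise. Values named for other stem-loops follow a rule of highest and lowest correlation. The members, lists and comparisons were chosen with earlier results of these data known. Lists of other microRNAs, mir-671, genome neighbours and the named olfactory set were not analysed by name, since the files and reference do not pair accessions with names.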

Additional observations from a re-analysis of the deposited data

Results flagged for a closer look

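In Q140 at 6 months mir-7b of female 4 stood apart, at 68.3 CPM against 41.7 to 51.6 CPM in the other 7 libraries. In Q50 at 6 months mir-7b of male 1, a library left out of the fits, stood apart at 76.1 CPM against 45.4 to 55 CPM, and its co-varying set was at 19900 CPM. With 36 groups of values examined, chance gives about 1 such library in 20 groups. The difference between Q20 and WT of its line changed between ages by 0.41 for mir-7a-1 and 1.64 for mir-7a-2 on the log2 scale, by a test of the difference itself. With the co-varying set as a covariate the change of mir-7a-2 was 1.48 and did not pass (edgeR FDR = 0.0571). Neither passed with the replicate block (edgeR FDR = 0.166 for mir-7a-1 and 0.28 for mir-7a-2).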

How the results depend on the processing

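Of 834 alternative fits of member differences, 794 stayed on their side of the threshold, 23 lost a call, 17 gained one and none reversed a called change. Among the 794, 30 changed sign, all for differences that passed in neither fit. The cause of each changed call was not tested. Over all 96 libraries, calls were gained for mir-7b in Q92 at 6 months (-0.26), mir-7a-1 between ages in controls (-0.12), and mir-7a-2 for the change of slope (0.92) and of the Q92 difference (1.53), and mir-7a-2 in Q92 with ages combined was lost (-0.50). DESeq2 gained mir-7a-2 in Q140 against Q92 at 6 months (0.67), mir-7b in Q20 at 10 months (0.35), mir-7a-1 between ages (-0.12), mir-7a-2 for the change of slope (0.88) and mir-7a-1 in Q92 with ages combined (-0.16). Without a filter mir-7a-2 in Q20 at 10 months was lost (1.15), and a stricter filter (10 CPM) gained the change of slope (0.91). Without the L field, mir-7b in Q20 at 10 months (0.36), the change of slope (0.90) and mir-7a-1 in Q92 with ages combined (-0.17) were gained. Rounding down gained mir-7a-1 between ages (-0.12). The co-varying set as a covariate lost, for mir-7a-1 then mir-7a-2, the slopes at 6 months (-0.10 and -0.39) and Q20 at 10 months (0.23 and 0.88), as well as mir-7a-1 in Q92 at 6 months (-0.22) and mir-7a-2 for the change of the Q20 difference (1.48). It gained mir-7a-2 in Q140 against Q92 at 10 months (1.52) and mir-7a-1 in Q92 with ages combined (-0.18). WT alone as controls gave 0.85 for mir-7a-2 in Q140 at 10 months and -0.55 in Q92 with ages combined. Knock-in groups only gave slopes of -0.10 and -0.41 at 6 months, and the L field added gave -0.56 for mir-7a-2 between ages. Within L1 mir-7a-2 in Q92 at 6 months was -1.24. Within L2 it was -1.18, mir-7a-1 was -0.16, and the slopes were -0.078 and -0.35.

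With the replicate block 6 calls did not pass in edgeR: mir-7a-1 for the slope at 6 months (-0.14, FDR = 0.0531), mir-7a-1 and mir-7a-2 in Q20 at 10 months (0.30 and 1.05, FDR = 0.0759 and 0.172, where 0 of 461 stem-loops passed) and for the change of that difference (0.33 and 1.40, FDR = 0.166 and 0.28, where 1 of 501 passed), and mir-7a-2 in Q92 with ages combined (-0.71, FDR = 0.0757). Libraries that share a number within sex and age had a median r of deviations of 0.04 (lowest -0.92, over 0.1 in 106 of 240 pairs). In 720 pairs with other numbers the median was 0.004 (lowest -0.88). These values do not decide whether the numbers pair mice, and a shared litter, cage or handling was not tested.

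Leaving out single libraries in 87 fits gave ranges of -0.18 to -0.14 for mir-7a-1 in the slope at 6 months, 0.26 to 0.33, 1.01 to 1.27 and 0.29 to 0.43 for mir-7a-1, mir-7a-2 and mir-7b in Q20 at 10 months, and -0.27 to -0.20 for mir-7b in Q92 at 6 months, which passed only without Q20 male 4 (-0.25, FDR = 0.0398). Calls over all stem-loops ranged across settings from 5 to 76 in Q92 at 6 months (53 as reported), 3 to 69 in the slope (62), 0 to 58 in Q20 at 10 months (35) and 149 to 205 between ages in controls (195). Group levels moved by less than 1 SD under the library total, a prior of 1 CPM for the log2 family level, or without the 22 libraries over 5000 CPM of the set, although in Q92 at 10 months, with an SD of 21.5 CPM, mir-7a-2 moved to 18.49 CPM (3 libraries) against 37.73 CPM over all 8. The planned covariate of a named olfactory set was not run by name. Without names paired to accessions, whether the 8 co-varying stem-loops belong to that set was not checked. The division of reads between the mir-7a loci and the few libraries kept in Q92 at 10 months limit these values.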
